A study of Mus musculus with 30 samples.

Results

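The windows described here are stretches of 100 kb on the autosomes in which Sleeping Beauty (SB) vector insertions were at least 2 times as dense as piggyBac (PB) insertions. A window entered when it held 60 or more site records over all 30 livers and its mean SB density was at least 2 times its mean PB density. Density is the number of sites in the window per 10000 autosomal sites of the same liver, averaged over the livers of a group. By this rule 1275 windows were SB-favoured, of 12092 windows with 60 or more records and of 23964 autosomal windows with any record. The share called was 10.5% of the windows that met the record minimum. In the opposite direction, 1103 windows (9.12%) had a PB density at least 2 times the SB density.

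Insertions were mapped in genomic DNA of whole livers from Fah knockout mice that had received an in vivo gene therapy vector, 13 livers with the SB system and 17 with the PB system. Fah encodes fumarylacetoacetate hydrolase, which completes the breakdown of tyrosine, and its loss models tyrosinemia type I (TT1). All animals of both groups carried the Fah knockout and all were treated. The labels give tissue and vector group but no age, sex, dose or time after treatment, and do not say how livers numbered 13 and above differ from livers 1 to 12. Streptavidin-based enrichment sequencing (SBE-seq) amplifies the junction between vector and genome, and each deposited record is 1 position and strand in 1 liver. A catalogue of DNA sites carries no expression markers, so the tissue label could not be checked from these files.

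SB and PB are DNA transposons that a transposase cuts from a plasmid and pastes into the genome. SB inserts at the dinucleotide TA, which is found almost everywhere, and is known for a nearly even spread over the genome. PB inserts at TTAA and is known to favour open chromatin and active genes. A window can therefore become SB-favoured through many SB sites or through few PB sites. No genome or gene annotation of the files' build, GRCm39, was used here, so the windows are given by position and not by gene, and no target sequence is shown.

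SB livers held 4670 to 115635 autosomal sites and PB livers 15780 to 119816. SB liver 13 stood apart with 4670 sites, where every other SB liver had at least 34004. A site in SB liver 13 counts as 2.14 per 10000, which alone adds 0.165 to the mean SB density of its window. In SB liver 11, the deepest SB liver, a site counts as 0.0865. Shares, densities, runs and named windows that rest on SB liver 13 are given with and without it, a choice made after its weight had been seen.

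The values of this paragraph are those that chose the windows and are given as a description, without a test. Compared with the other windows with 60 or more records, SB-favoured windows had few PB sites and a similar number of SB sites. The record minimum lets a window with few PB records enter only if SB records make up the rest. Against all autosomal windows SB was raised. Over SB livers 1 to 12 the mean SB density was 0.554 in SB-favoured windows and 0.416 in all autosomal windows. The median SB density of SB-favoured windows was 0.562, against 0.580 in the other windows with 60 or more records. Over SB livers 1 to 12 alone it was 0.529 against 0.595. Their median PB density was 0.219, against 0.600 in the other windows. SB density exceeded the median of all windows with 60 or more records in 591 of the 1275, whereas PB density fell below the corresponding median in 1266. In raw records, the median SB-favoured window held 48 SB and 28 PB records, and the median of the other windows held 55 SB and 72 PB records. The median SB to PB ratio was 2.41 in SB-favoured windows, with a highest value of 46.4, and 0.951 in the other windows.

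**Figure D1:**
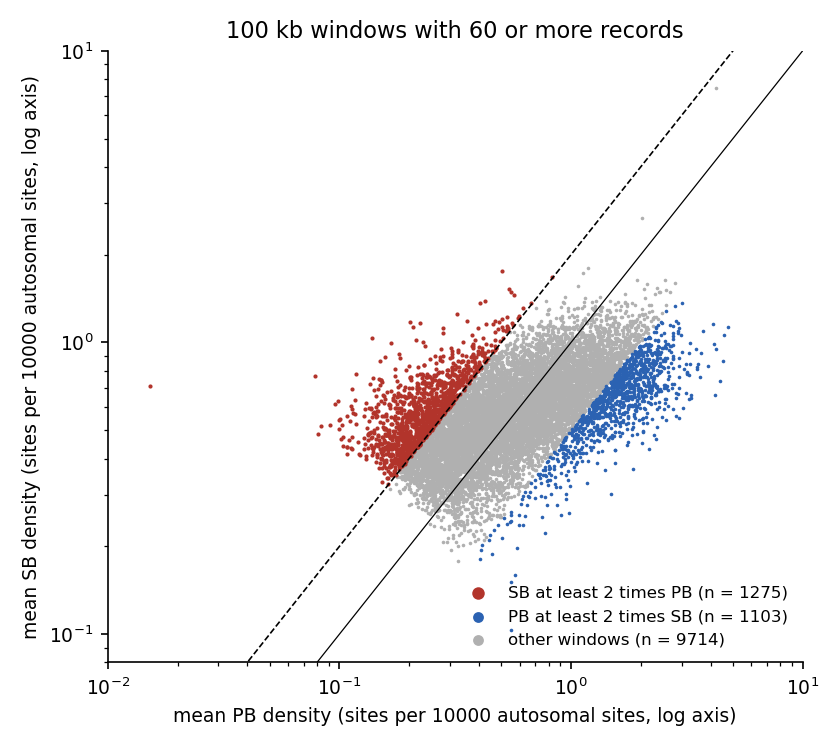
Mean SB density (vertical, log axis) against mean PB density (horizontal, log axis) of the 12092 windows with 60 or more records, in sites per 10000 autosomal sites; each point is a window, the dashed line is a ratio of 2 and the solid line a ratio of 1. The 1275 SB-favoured windows lie to the left of the other windows at a similar height, with a median PB density of 0.219 against 0.600 and a median SB density of 0.562 against 0.580.

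Many SB-favoured windows lay close to the limits of the rule. A ratio between 2 and 2.2 was found in 370 of them, a ratio of 3 or more in 253 and a ratio of 5 or more in 29. Just below the ratio, 532 windows with 60 or more records stood between 1.8 and 2. The nearest windows inside were on chromosome 12 at 83.5 to 83.6 Mb (ratio 2.0012), chromosome 7 at 133.8 to 133.9 Mb (2.002) and chromosome 15 at 90.3 to 90.4 Mb (2.0035). The nearest outside were on chromosome 17 at 76.0 to 76.1 Mb (1.9992), chromosome 3 at 77.7 to 77.8 Mb (1.9989) and chromosome 17 at 13.8 to 13.9 Mb (1.9982). The 6 are alike in record number as well, with 68 to 113 records inside and 68 to 88 outside. At the record minimum, 258 SB-favoured windows held 60 to 64 records, and 317 windows with 55 to 59 records had a ratio of 2 or more. Of the 11872 windows with fewer than 60 records, 4511 had a ratio of 2 or more. Sparse windows dominated the set, since 192 of the 1275 held 100 or more records, against 7571 of the 12092.

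Few records stand behind a window, and the livers of the groups overlapped in almost every one. In livers 1 to 12 of each group, 4 windows had every SB liver above every PB liver, which is 0.0331% of the 12092, and all 4 were SB-favoured. Over all 30 livers the count was 0, and in each of the 4 windows SB liver 13 had no record. This ordering uses the same densities as the rule and is therefore a description. The first of the 4 lay on chromosome 7 from 99800001 to 99900000 (GRCm39), with 105 SB and 44 PB records. Its SB density was 0 in the lowest liver, 1.07 in the median and 2.12 in the highest, and its PB density was 0, 0.369 and 1.27. In livers 1 to 12 the lowest SB value was 0.692 and the highest PB value 0.591. The gap between the groups in livers 1 to 12 was thus narrow. The PB liver at 1.27 was one of livers 13 to 17 and lay above the lowest SB value of livers 1 to 12.

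The other 3 windows without overlap were thinner. On chromosome 13 at 55.9 to 56.0 Mb, 63 SB and 18 PB records gave densities of 0.628 ± 0.323 (SD, n = 13) and 0.183 ± 0.180 (SD, n = 17). On chromosome 12 at 25.4 to 25.5 Mb, 54 SB and 19 PB records gave 0.569 ± 0.276 and 0.116 ± 0.106. This window opens a run of 4 adjacent SB-favoured windows described further on. On chromosome 12 at 84.7 to 84.8 Mb, 51 SB and 11 PB records gave 0.515 ± 0.313 and 0.0831 ± 0.0832. In all 3, every SB liver from 1 to 12 had at least 1 record.

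To see how far the contrast holds in a liver that had no part in the choice, the rule was applied to the other 29 livers and the left-out liver was read in the windows so chosen. In windows chosen on all 30 livers, the share of a liver's autosomal sites was 7.68% ± 2.21 in SB livers (SD, n = 13) and 3.03% ± 0.40 in PB livers (SD, n = 17), a ratio of 2.54. Without SB liver 13 the SB share was 7.07% ± 0.24 (SD, n = 12) and the ratio 2.33, and in livers 1 to 12 of both groups the ratio was 2.17. SB shares ran from a lowest of 6.72% through a median of 7.06% to a highest of 14.99%, and PB shares from 2.25% through 3.23% to 3.56%. The 14.99% belonged to SB liver 13, and the next highest SB liver had 7.63%. In windows chosen without the liver, the share was 5.70% ± 0.17 in SB livers (5.42% to 6.03%) and 3.39% ± 0.18 in PB livers (3.05% to 3.64%), a ratio of 1.68. SB liver 13 had 5.42% there, the lowest of the SB livers. The 5 PB livers above 12 had 2.48% ± 0.21 in windows chosen with them and 3.42% ± 0.20 in windows chosen without them.

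The groups did not overlap in either reading. The left-out shares were summed over a mean of 1132.8 windows for SB livers and 1211.9 for PB livers. Their ratio of 1.68 therefore compares unlike numbers of windows. Per window, the left-out livers held 0.504 ± 0.025 sites per 10000 in SB livers and 0.280 ± 0.012 in PB livers, a ratio of 1.804. The ratio of the left-out livers was thus lower than the one in livers that had helped to choose the windows. Each such value rests on nearly the same 29 livers as the next, so no test was made over them.

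**Figure D2:**
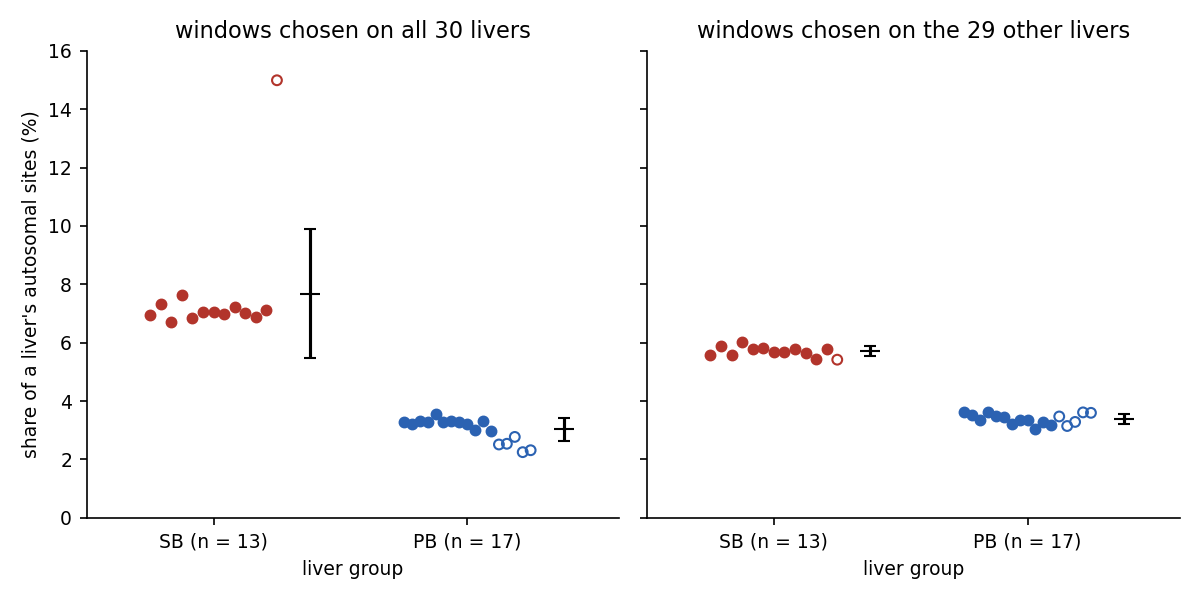
Share of each liver's autosomal sites (vertical, %) in SB-favoured windows, for windows chosen on all 30 livers (left panel) and on the 29 other livers (right panel). Points are livers in numerical order, filled for livers 1 to 12 and open for higher numbers, and black bars are the group mean ± SD. SB liver 13 moves to 5.42% in the right panel, where it is 14.99% in the left, and SB livers stay above all PB livers in both.

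SB liver 13 decided part of the list. It had a record in 514 of the 1275 windows. Without it the rule gave 1247 windows, of which 983 were on the list and 264 were not. The other 292 dropped out, as can happen here only to windows in which SB liver 13 had a record. Leaving out any other liver gave 1039 to 1253 windows, with 986 to 1147 of the 1275 kept. The lowest of these, 1039 windows of which 986 were on the list, came without SB liver 11.

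The 10 SB-favoured windows with the most records show this at window level. The fullest, on chromosome 11 from 78500001 to 78600000, held 102 SB and 68 PB records and was hit in 13 of 13 SB livers and 16 of 17 PB livers. SB density there was 0.778 in the lowest liver, 1.21 in the median and 2.14 in the highest, and PB density was 0, 0.634 and 1.23. The ratio was 2.07, and 1.94 without SB liver 13. On chromosome 19 at 39.5 to 39.6 Mb (94 SB and 68 PB records), the ratio was 2.84, and 1.74 without SB liver 13, which had 4 records there. For the window on chromosome 11 at 102.0 to 102.1 Mb, with 79 SB and 90 PB records, the ratio was 2.02 with that liver and 1.13 without it. Of the 10 fullest windows, the one on chromosome 2 at 24900001 to 25000000 (ratio 2.12) and the one on chromosome 4 at 59.7 to 59.8 Mb (ratio 2.01) stayed at 2 or above without SB liver 13. The remaining 8 stood between 1.13 and 1.94. Over all 10 windows, SB records numbered 79 to 102 and PB records 63 to 90, and each window was hit in 13 of 13 SB livers.

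The 10 windows with the highest ratios were different ones, with 62 to 91 records each. The top ratio, 46.4, belonged to chromosome 10 from 60300001 to 60400000, with 68 SB and 3 PB records. SB density there was 0 in the lowest liver, 0.692 in the median and 1.99 in the highest, and PB density was 0, 0 and 0.176, with a PB record in 2 of 17 livers. The second, on chromosome 10 from 105800001 to 105900000, had 59 SB and 13 PB records and a ratio of 9.76. The third, on chromosome 3 from 3000001 to 3100000, had 72 SB and 19 PB records and a ratio of 7.46. Sites in these 3 windows were packed. Of the 72 SB records on chromosome 3, 57 lay in 1 stretch of 10 kb, as did 52 of 68 and 43 of 59 records in the chromosome 10 windows. In the chromosome 10 windows, 46 and 41 of these SB records lay within 100 bp, in clusters described further on. Without those clusters, neither chromosome 10 window would hold the 60 records that the rule requires.

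The other 7 windows of highest ratio were spread out. Their SB records fell into 9 or 10 of the 10 stretches of 10 kb, with 8 to 13 records in the fullest. Examples are chromosome 8 at 120.4 to 120.5 Mb, with 59 SB and 15 PB records and a ratio of 6.44, and chromosome 9 at 108.7 to 108.8 Mb, with 52 SB and 11 PB records and a ratio of 6.03. Neither had a record from SB liver 13. The window on chromosome 3 at 132.8 to 132.9 Mb (39 SB and 27 PB records) had a ratio of 6.005, and of 2.22 without SB liver 13, which had 4 records in it. In the other 9 windows the ratio without that liver was 4.13 to 50.2.

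**Figure D3:**
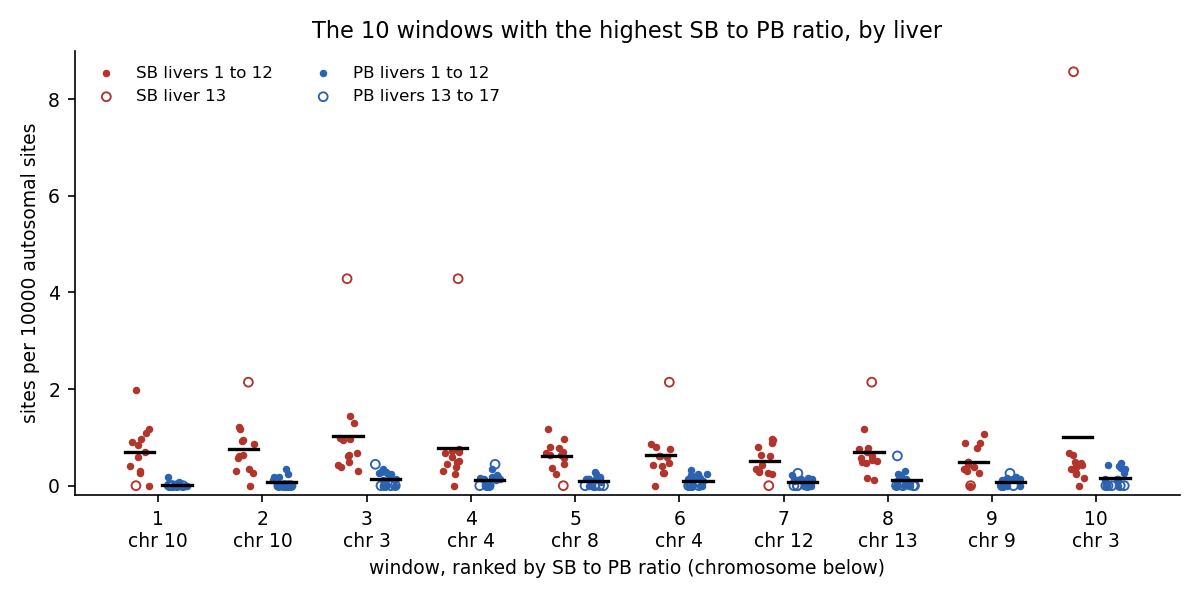
Site density (vertical, sites per 10000 autosomal sites) of each liver in the 10 windows with the highest SB to PB ratio (horizontal, ranked, with the chromosome below); SB livers are left of PB livers, open circles are livers numbered above 12, and black bars are group means. SB liver 13 lies at 8.57 in the tenth window, where the SB median is 0.396, while the PB livers of all 10 windows lie at 0.616 or below.

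Tight clusters of SB records were then sought in the SB-favoured windows, since packing had been seen in the top 3. A cluster is 10 or more records of 1 group within 100 bp. SB clusters occurred in 7 of the 1275 windows (0.549%), against 25 of the 10817 other windows with 60 or more records (0.231%). PB clusters showed the opposite order, with 13 of 1275 (1.02%) against 3547 of 10817 (32.8%). An SB cluster adds to the records and the SB density that chose the windows, and some of the 7 reached 60 records only with their cluster. The PB density that chose the windows also limits how many PB clusters they can hold. The SB and PB shares are therefore a description.

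The largest SB cluster formed a regular ladder. It ran on chromosome 10 from 60315452 to 60315493 and held 46 of the 68 SB records of its window, at 11 positions in 9 livers. Each of the 10 steps between neighbouring positions was 4 bp, and all 46 records were on the minus strand. Their median support, the whole number deposited beside each site and taken here as its reads, was 11.5, against 47 for the other SB records of the window. Without a genome sequence, the letters under the ladder were not read.

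Another ladder of 4 bp lay on chromosome 10 from 105840578 to 105840622, with 41 of 59 SB records at 15 positions in 11 livers. All 41 were on the minus strand, 7 of the 14 steps were 4 bp, and the median support was 11 against 48 in the rest of the window. The cluster on chromosome 14 from 29904149 to 29904172 had 31 of 60 SB records at 12 positions in 5 livers, all on the plus strand. There all 11 steps were 2 bp, and the median support was 8 against 45. The remaining 4 clusters had 17, 10, 10 and 10 records. Those on chromosome 1 at 172.9 to 173.0 Mb and at 193.5 to 193.6 Mb came from 2 livers and 1 liver, and the one at 188.9 to 189.0 Mb on the same chromosome came from 9. The cluster at 193.5 to 193.6 Mb and the one on chromosome 18 held both strands, with 6 minus and 4 plus records each, whereas the other 5 clusters were each on 1 strand.

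**Figure D4:**
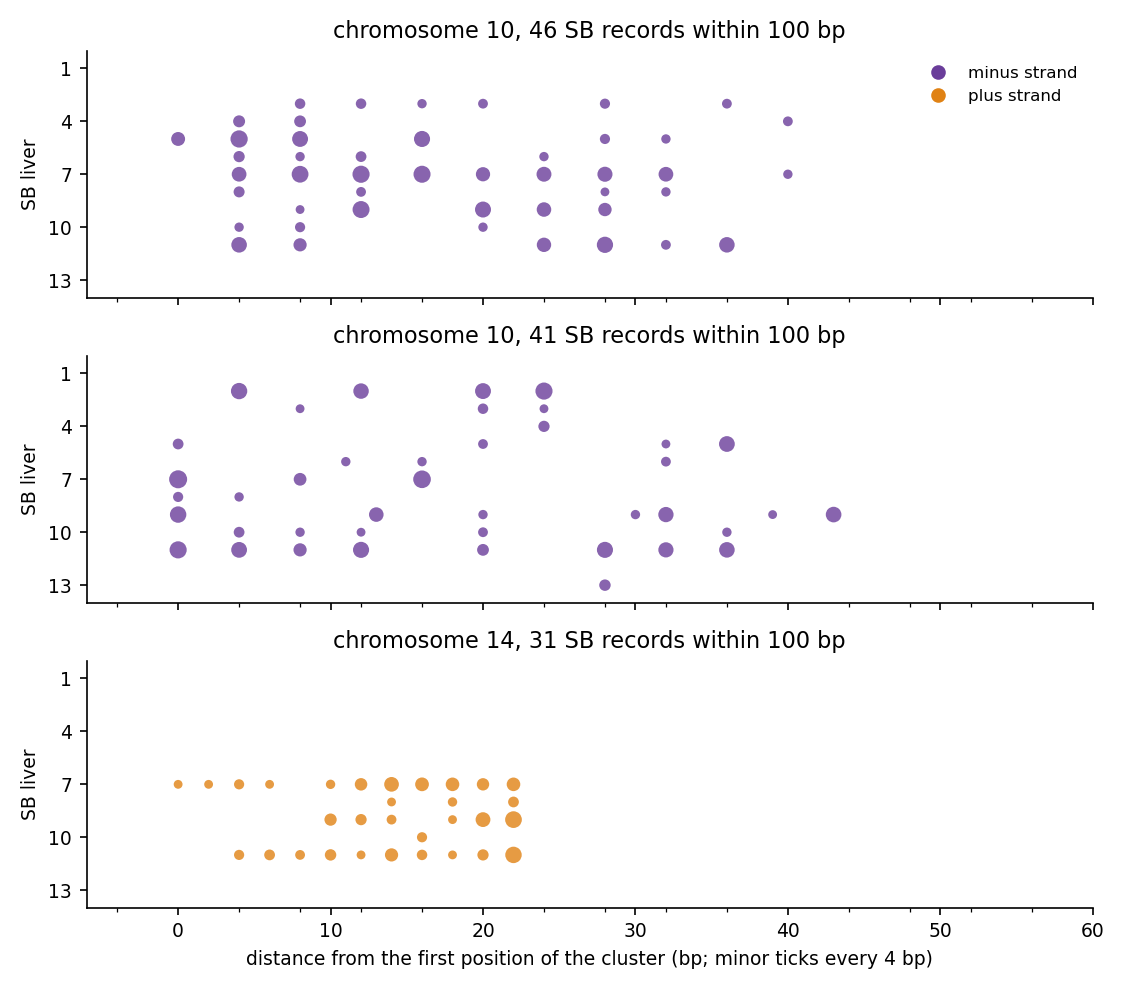
SB records of the 3 largest tight clusters by liver (vertical, SB liver number) and distance from the first position of the cluster (horizontal, bp, minor ticks every 4 bp); point area grows with the logarithm of support and colour gives the strand. Steps of 4 bp on chromosome 10 and of 2 bp on chromosome 14 recur in several livers, and each cluster is on 1 strand.

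Short even spacings of SB positions were also counted over all windows. Of 61992 pairs of neighbouring SB positions in SB-favoured windows, 2.45% were 2 bp apart and 1.26% were 4 bp apart, while 0.0387% were 3 bp apart. In the other windows with 60 or more records, 1.70% were 2 bp, 1.12% were 4 bp and 0.0440% were 3 bp apart. For PB, whose TTAA site spans 4 bp, 1.45% of neighbouring positions in SB-favoured windows and 2.58% in the other windows were 1 bp apart. Spacings of 2 and 4 bp were thus commoner than 3 bp in both sets of windows, the 7 clusters included.

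In most windows the SB sites were spread over the whole 100 kb. The median SB-favoured window had SB records in 10 of its 10 stretches of 10 kb, with 18.9% of them in the fullest, against 10 and 18.5% in the other windows. PB records reached 9 stretches with 25.8% in the fullest, against 10 and 29.1% in the other windows. Pooled over SB-favoured windows, 4.37% of SB records lay at positions found in more than 1 SB liver, against 4.77% in the other windows. For PB the pooled shares were 20.3% in SB-favoured windows and 45.6% in the others. PB positions had a median of 25 per SB-favoured window against 53. Pooled over windows, there were 1.14 against 1.46 PB records per position. The rule chose windows with few PB records, and windows with fewer records offer fewer chances of reuse, so these PB values are a description of the rule.

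Spread between livers was near that of counting in the median window, and SB spread reached higher values in SB-favoured windows than in the others. The chi-square of a window's records over the livers of a group, with the livers' site totals as expectation, was divided by its degrees of freedom. Counting error alone then gives 1 on average, with single windows above and below. For SB records, its median was 1.06 in SB-favoured windows and 0.963 in the other windows, and for PB records it was 0.935 and 0.991. In SB-favoured windows, SB values had an upper quartile of 1.47, a 90th percentile of 2.03 and a highest value of 13.6, against 1.27, 1.64 and 6.90 in the other windows. For PB values these were 1.17, 1.44 and 3.29, against 1.28, 1.62 and 9.06. A record in SB liver 13 raises both the SB value and the SB density that chose the window. On chromosome 3 at 132.8 to 132.9 Mb, with 4 such records, the value was 6.57. The wider SB spread is therefore a description, and it was not computed without SB liver 13. The median SB-favoured window was hit in 12 of 13 SB livers and 12 of 17 PB livers, and the median of the other windows in 12 and 16. A record in all 12 of SB livers 1 to 12 was found in 793 of the 1275.

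Most SB-favoured windows stood alone on the chromosome. They formed 1130 runs, of which 1000 were 1 window long, 117 were 2, 11 were 3 and 2 were 4 windows long. Runs of 2 or more held 275 windows, or 21.6%. Of the windows that follow an SB-favoured one and have 60 or more records, 145 of 995 (14.6%) were SB-favoured too, against 10.5% of all windows with 60 or more records, and 65 (6.53%) were PB-favoured, against 9.12%. The windows chosen without SB liver 13 formed 1105 runs, and 14.5% of the windows that follow them were chosen too, against 10.3% of all. Among windows that follow a PB-favoured one, 16.9% were PB-favoured. Neighbouring windows are not independent, and no test was made.

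The longest runs spanned 4 windows each. On chromosome 15 at 9.6 to 10.0 Mb, 179 SB and 101 PB records gave a summed density of 1.96 ± 0.20 in SB livers (SD, n = 13) and 0.809 ± 0.561 in PB livers (SD, n = 17), a ratio of 2.42. SB livers there ran from 1.53 through a median of 2.05 to 2.18, and PB livers from 0 through 0.738 to 1.90, so the groups overlapped in some livers. On chromosome 12 at 25.4 to 25.8 Mb, 196 SB and 82 PB records gave 1.95 ± 0.70 and 0.604 ± 0.391, a ratio of 3.22, with SB livers from 0 through 2.14 to 2.90 and PB livers from 0 through 0.668 to 1.33. Without SB liver 13 the ratios of these runs were 2.40 and 3.49. Of the 11 runs of 3 windows, the 3 with the most records lay on chromosome 4 at 105.4 to 105.7 Mb (ratio 2.61), chromosome 7 at 35.1 to 35.4 Mb (2.43) and chromosome 7 at 26.1 to 26.4 Mb (2.57). Without SB liver 13 their ratios, in this order, were 2.40, 1.99 and 2.30, so the run on chromosome 7 at 35.1 Mb no longer reached 2.

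The surroundings of the SB-favoured windows did not favour SB over PB. At 100 kb on either side the density was 0.540 ± 0.012 in SB livers and 0.541 ± 0.010 in PB livers, a ratio of 0.998. The windows themselves had 0.602 ± 0.173 in SB livers and 0.237 ± 0.031 in PB livers. Without SB liver 13, SB density was 0.554 ± 0.019 in the windows and 0.539 ± 0.012 at 100 kb (SD, n = 12), so the step between window and neighbour was small for SB and large for PB. The densities in the windows are those that chose them, whereas the neighbours did not have to meet the rule. The steps are therefore set in part by the rule and are a description. Windows chosen without the liver held 0.504 in left-out SB livers and 0.280 in left-out PB livers. At 500 kb the values were 0.536 in SB livers and 0.562 in PB livers, and at 1000 kb 0.503 and 0.517. At 2000 kb they were 0.469 and 0.474, still above the mean of 0.416 over all autosomal windows. Leaving SB-favoured neighbours out, the windows at 100 kb had 0.533 in SB livers and 0.581 in PB livers. SB-favoured windows thus lay in stretches that both vectors hit more often than the autosomal average, and the record minimum in the rule favours such stretches.

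**Figure D5:**
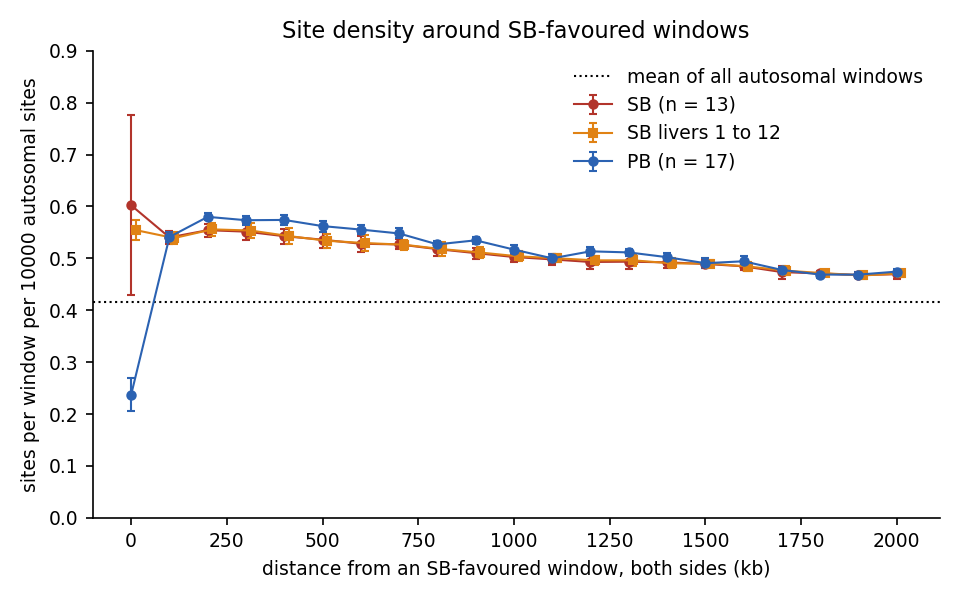
Site density (vertical, sites per window per 10000 autosomal sites) at SB-favoured windows and at distances up to 2000 kb on both sides (horizontal, kb); points are means over 13 SB livers, SB livers 1 to 12 (squares, shifted slightly to the right) and 17 PB livers, bars are SD, and the dotted line is the mean of all autosomal windows, 0.416. SB density is 0.602 at distance 0 and 0.540 at 100 kb (0.554 and 0.539 without SB liver 13), and PB density is 0.237 and 0.541. The values at distance 0 are those that chose the windows.

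SB-favoured windows occurred on all 19 autosomes. Their share of the windows with 60 or more records was lowest on chromosomes 13 (7.77%) and 3 (7.87%) and highest on chromosomes 7 (13.1%), 5 (12.4%) and 1 (12.3%). PB-favoured windows made up 6.45% on chromosome 7, their lowest share, and 11.6% on chromosome 3, their highest. In the last 5 Mb of the chromosomes, as far as records reach, 85 of 550 windows (15.5%) were SB-favoured, against 1141 of 11063 (10.3%) in between and 49 of 479 (10.2%) in the first 5 Mb. In windows chosen without SB liver 13 the shares were 15.8% in the last 5 Mb, 10.2% in between and 8.16% in the first 5 Mb.

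Support and strand, which the rule did not use, were tested with the liver as the replicate. In SB livers, the median support was 54.4 ± 15.9 in SB-favoured windows and 55.3 ± 16.7 at the other autosomal sites (SD, n = 13), with a mean log2 ratio of -0.02 ± 0.03, lower in 7 livers, equal in 5 and higher in 1. This missed the threshold (exact sign-flip test, two-sided, adjusted p = 0.07 over 6 tests). In PB livers, it was 69.7 ± 37.1 in SB-favoured windows and 70.4 ± 37.0 elsewhere (SD, n = 17), with a mean log2 ratio of -0.02 ± 0.02, lower in 11 livers, equal in 3 and higher in 3 (sign-flip permutation test, adjusted p = 0.053). Without SB liver 12, both missed values passed, at adjusted p = 0.047 each. The PB value passed as well without PB liver 6 (adjusted p = 0.022), 14 (0.048) or 17 (0.021) in the same permutation test. Other settings turned both calls. With the mean of log2 support the values were -0.043 in SB and -0.039 in PB livers (sign-flip permutation tests, adjusted p = 0.0018 each). Set against the other windows with 60 or more records they were -0.037 and -0.026 (sign-flip permutation tests, adjusted p = 0.012 and 0.0022). In windows chosen without SB liver 13 they were -0.013 and -0.016 (sign-flip permutation tests, adjusted p = 0.46 and 0.28). The difference between SB and PB livers was -0.0048 on the log2 scale (permutation test, two-sided, p = 0.63, adjusted p = 0.98).

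No difference in strand passed the threshold. The minus-strand share was 51.3% ± 0.8 in SB-favoured windows and 51.3% ± 0.9 elsewhere in SB livers, a difference of -0.036 ± 0.703 percentage points. In PB livers it was 50.9% ± 1.8 and 50.9% ± 0.5, a difference of -0.0089 ± 1.87 percentage points. The share was higher inside the windows in 5 of 13 SB livers and 10 of 17 PB livers. The adjusted p was 0.98 in the permutation test between groups and in the exact sign-flip tests within SB and within PB livers. The widest PB deviations, 4.78 and -4.22 percentage points, were those of PB livers 13 and 17, which had 568 and 376 sites in the windows.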

How the data were processed

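The authors deposited, per liver, a list of insertion sites with chromosome, position, strand and a whole number per site. The submitters' processing notes name cutadapt, BWA and the build GRCm39 and give no versions. The meaning of the deposited number is not given in the sources used here. Called support, it is read as the number of reads of a site. Its smallest value was 3. Such amplified reads are not independent molecules. Deposited merged tables were not used here.

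Autosomal records were counted in windows of 100 kb with pandas 2.3.3 and numpy 2.4.6 in Python 3.11.15, tested with scipy 1.17.1 and drawn with matplotlib 3.10.9. The windows and every list were chosen with earlier results of these data known. Because the rule uses SB and PB densities, these were not tested. Support (log2 ratio of medians) and strand share, inside against outside the windows, were compared between groups by permutation tests of 100000 resamples. Within each group they were compared with 0 by exact sign-flip tests, which are also called sign-flip permutation tests here. Benjamini-Hochberg adjustment covered 6 tests at a threshold of 0.05. Nothing says how livers were raised or treated together, so p-values measure the spread between these livers. The calculations were tested on simulated data.

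Windows named are the 10 with most records, the 10 with the highest ratio, the 5 longest runs (ties broken by the number of records), the 3 nearest on each side of the ratio and those without overlap in livers 1 to 12. Windows with tight clusters were named after their values were seen. The gene table at hand describes another build, so no gene was placed and gene content is not analysed here. A window with 60 records carries wide counting error, and a liver's density in it rests on a few sites. Alternatives changed the livers, the averaging, the counting of sites, the support minimum, the record minimum, the ratio, the window grid and the comparison windows.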

Additional observations from a re-analysis of the deposited data

How the results depend on the processing

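The number of SB-favoured windows, 1275, stayed within 1.5 times of that value when livers 1 to 12 alone were used (1027, of which 744 were on the list), with pooled density (1128, 886 on the list), with strands merged, with sites merged within 10 bp or, added after clusters were seen, 100 bp, with support of 10 or more, and on a grid shifted by 50 kb. It was 530 with positions shared between livers of a group left out (395 on the list), which removes more PB than SB sites, 4235 with 30 or more records, 65 with 120 or more, 2919 at a ratio of 1.5 and 253 at a ratio of 3. Leaving out 1 liver gave 1039 to 1253 windows, and the SB to PB ratio of shares then ran from 2.49 to 2.55. The rule itself holds these values above 2. In left-out livers the ratio was 1.804 per window, and 1.68 for shares summed over unlike numbers of windows.

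With 1 liver left out, the support difference between SB and PB ran from -0.0087 to 0.00035. The SB value ran from -0.026 to -0.017 (exact sign-flip tests, adjusted p 0.047 to 0.14). The PB value ran from -0.020 to -0.015 (exact sign-flip tests, adjusted p 0.021 to 0.07). For strand, in percentage points, the ranges were -0.290 to 0.272 for the difference, -0.153 to 0.062 for SB and -0.308 to 0.254 for PB, none of them past the threshold. In livers 1 to 12 alone, the support difference was 0.0046, and the strand values were 0.062 for SB and 0.266 for PB. With support of 10 or more, support was -0.013 in SB and -0.0089 in PB livers (sign-flip permutation tests, adjusted p = 0.21 each), the strand difference was 0.458 and the SB value 0.095. With those shared positions left out, the support difference was -0.033 (permutation test, adjusted p = 0.02), the SB value -0.025 (adjusted p = 0.035) and the PB value 0.0084, and the strand difference was 0.587. Set against the other windows with 60 or more records, support was -0.037 in SB and -0.026 in PB livers (sign-flip permutation tests, adjusted p = 0.012 and 0.0022), and the strand values were 0.062 for the difference, 0.340 for SB and 0.278 for PB. In windows chosen without SB liver 13, support was -0.013 in SB and -0.016 in PB livers (sign-flip permutation tests, adjusted p = 0.46 and 0.28), the support difference 0.0025, the strand difference 0.389 and the SB strand value 0.213. With the mean of log2 support, the values were -0.043 in SB and -0.039 in PB livers (sign-flip permutation tests, adjusted p = 0.0018 each). The causes of these changes were not tested.

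With the liver number as a replicate block over 13 pairs, the support difference was -0.0022 and the strand difference -0.649 percentage points, neither past the threshold. Same-numbered livers did not deviate together (correlations -0.026 to 0.017). This cannot tell whether they were raised or treated together, since sites that fall independently in each animal would give the same result. Depth limits single windows, where a site in SB liver 13 weighs 2.14 per 10000.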
